A study of Mus musculus with 70 samples.

Results

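The genes described here are 35 interferon effectors, mouse genes known as targets of type I interferon that lie outside the Oas, Ifit, Gbp, Irf and Slfn families. They were taken from a list of gene names that was chosen with earlier results of these data known. All 35 were found among the 24435 genes of the deposited expected-count table after the transcripts of each gene had been summed. All 35 also passed the filter for testing (at least 1 CPM, counts scaled to library size, in at least 3 libraries).

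Type I interferons bind a receptor that nearly every cell carries, and its signal acts through interferon-stimulated response elements in the promoters of target genes. The products of these genes block viral RNA and protein synthesis, tag proteins with the ubiquitin-like ISG15, or tune the response. Plasmacytoid dendritic cells are known for making large amounts of these interferons, and resting dendritic cells transcribe many of the targets at a basal level.

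RNA of sorted spleen cells was sequenced from mice aged 8 to 10 weeks, 5 h after an intraperitoneal injection of PBS, which each group had received. Sorted were both types of conventional dendritic cell, cDC1 (cross-presenting) and cDC2, along with plasmacytoid (pDC) and monocyte-derived (moDC) dendritic cells and monocytes. NOD mice, an inbred strain that develops autoimmune diabetes, were compared with B6g7 (C57BL/6.g7, C57BL/6 mice with the MHC haplotype of NOD), and NOD Rag1-/- mice, which lack B and T lymphocytes, with B6 Rag1-/- mice, whose label names no g7 haplotype. For cDC1 and for cDC2, each Rag-sufficient strain had 6 libraries, and for pDC and for monocytes 3; moDC had 5 from NOD and 6 from B6g7. In Rag1-/- mice, without monocytes, every group had 3 except moDC of B6 Rag1-/- with 2. That makes 18 groups and 70 libraries. No label says that each library came from a separate mouse, so p-values measure the spread between these libraries.

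Library totals were 12.8 to 19.7 M expected counts among the 47 Rag-sufficient (NOD and B6g7) libraries and 14.7 to 20.6 M among the 23 Rag1-/- libraries. The sets were sequenced in different runs from 537 to 5000 and from 6575 to 14529 sorted cells, so a difference between the sets could stem from genotype, run or input, which cannot be told apart. Summed cDC1 marker levels had group medians of 3284 to 5070 CPM in cDC1 and at most 729 CPM elsewhere, and those of pDC 8023 to 22779 CPM in pDC and at most 161 CPM elsewhere. The cDC2 list did not set cDC2 apart, with group medians of 1604 to 2642 CPM in cDC2, 1929 to 3574 CPM in moDC and 1757 to 3260 CPM in pDC. Rag1 counts covered the whole transcript and did not check the deletion: each of the 23 libraries labelled Rag1-/- held 2 to 44 counts, and among Rag-sufficient cells outside pDC, 1 library of 41 held 1 count. Levels below are CPM after TMM scaling within each set, log2 changes are NOD minus its control with the standard error (SE) of the model, and adjusted p-values come from edgeR's quasi-likelihood test with Benjamini-Hochberg adjustment over all genes tested (threshold 0.05). In bulk RNA of sorted cells, fewer cells of a type and less RNA per cell cannot be told apart.

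Promoter windows of 28 of the 35 members could be read from the RefSeq table of build GRCm38.p6, from 250 bases before to 50 after the start of transcription. The core of the interferon-stimulated response element, searched on both strands as GAAA, any pair of bases and GAAA again, was present in the windows of 6 of these 28 genes (21.4%) and of 3.99% of all 27025 genes with a window. The gamma-activated site TTCNNNGAA, also searched on both strands, was present in 4 (14.3%) and in 9.55%, and none of its matches in the members overlapped a match of the response element. Mx1, Mx2, Ifi27l2a, Rtp4, Parp9, Parp14 and Tor3a had no window and were not searched. Isg15, Rsad2, Ddx60 and Lgals9 held the core before the start, and Eif2ak2 and Trim21 only after it. The 150 bases before the start are shown for these 4 genes because they place the element among genes whose strain differences are described below; capitals mark the core on either strand, and the last base lies next to the start. Isg15 lies on the minus strand at chr4:156200819-156200968, Rsad2 on the minus strand at chr12:26456453-26456602, Ddx60 on the plus strand at chr8:61927937-61928086 and Lgals9 on the minus strand at chr11:78984925-78985074.
Isg15: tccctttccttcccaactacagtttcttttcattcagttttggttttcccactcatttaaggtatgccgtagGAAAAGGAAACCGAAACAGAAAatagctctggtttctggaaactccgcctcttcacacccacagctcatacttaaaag
Rsad2: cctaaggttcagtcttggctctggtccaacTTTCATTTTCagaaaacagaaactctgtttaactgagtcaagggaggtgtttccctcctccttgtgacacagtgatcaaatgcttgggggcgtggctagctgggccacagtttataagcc
Ddx60: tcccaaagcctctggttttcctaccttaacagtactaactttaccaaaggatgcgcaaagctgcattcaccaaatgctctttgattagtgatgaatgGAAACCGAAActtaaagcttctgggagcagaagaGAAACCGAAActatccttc
Lgals9: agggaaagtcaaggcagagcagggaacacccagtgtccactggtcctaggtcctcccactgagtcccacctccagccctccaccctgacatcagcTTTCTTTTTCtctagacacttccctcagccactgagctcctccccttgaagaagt
The matches in Isg15 overlap each other, beginning 78, 72 and 66 bases before the start, and the pair in Ddx60 begins 53 and 19 bases before it. The match in Rsad2 begins 120 and that in Lgals9 55 bases before the start, both read from the opposite strand. A match describes the letters of the window only.

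In Rag-sufficient mice most members that changed were lower in NOD than in B6g7, in each of the 5 cell types. The falls were most frequent in cDC2, where 24 of 35 members fell and 1 rose, against 10.2% of all 13413 genes tested that fell and 11.8% that rose. In cDC2, B6g7 replicates 5 and 6 had RNA integrity numbers of 6.8 and 3.9; without them 22 members fell, 21 of them among the 24, and the falls of Parp12 (-0.41), Samd9l (-0.44) and Tor3a (-0.27) no longer passed. In monocytes 20 fell and 1 rose (7.52% and 7.81% of all genes), in moDC 18 fell and 1 rose (14.3% and 16%), in cDC1 14 fell and 2 rose (8.94% and 11.5%), and in pDC 9 fell and 2 rose (7.40% and 5.15%). The median log2 change of the 35 members was -0.60 in cDC2, -0.49 in monocytes, -0.35 in cDC1 and -0.34 in both moDC and pDC, where the median of all genes lay between -0.00 and 0.02. Counting libraries alone, with no test, every NOD library lay below every B6g7 library for 26 members in monocytes (16.3% of all genes), 13 in pDC (14.5%), 6 in cDC2 (2.57%), 4 in cDC1 (2.07%) and 2 in moDC (2.48%). Every NOD library lay above every B6g7 library for 1 member in monocytes (17.6%), 2 in pDC (12.7%) and none in cDC2 (4.31%), cDC1 (3.22%) or moDC (4.65%).

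**Figure D1:**
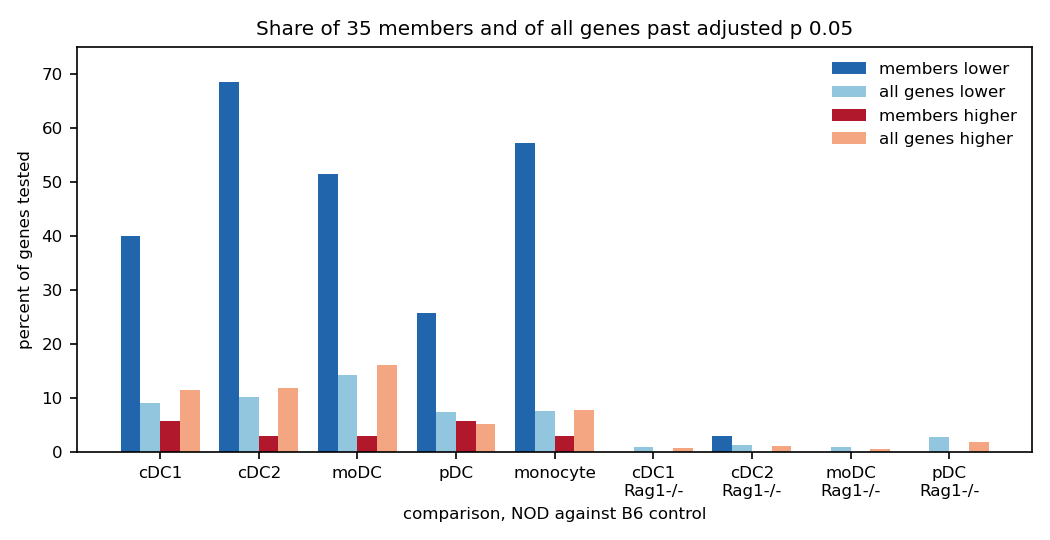
Percentage of the 35 members and of all genes tested that were lower or higher in NOD at an adjusted p under 0.05, for each of the 9 comparisons of a cell type. Among Rag-sufficient cells the bar of members lower in NOD exceeds that of all genes in each cell type, by most in cDC2 (24 of 35 members), and among Rag1-/- cells a single member passed.

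A single member, Ifi27l2a, fell in all 5 Rag-sufficient cell types. The antiviral GTPase gene Mx1, Isg15, Rtp4, Parp12, Xaf1 and Sp100 fell in 4, and 12 members fell in 3, 7 in 2 and 6 in 1. Mx2, Ddx60 and Ifi35 fell in none, and for Mx2 and Ifi35 no comparison passed in either direction. Isg20, Samd9l and Pml passed in opposite directions in different cell types. The 5 largest falls were those of Ifi27l2a, Ifi44, Eif2ak2, Xaf1 and Isg15 in cDC1, of Ifi44, Ifi27l2a, Rtp4, Cmpk2 and Eif2ak2 in cDC2, and of Ifi44, Rtp4, Ifi27l2a, Phf11d and Xaf1 in moDC. In pDC they were those of Rtp4, Parp12, Ifi27l2a, Trim21 and Isg20, and in monocytes those of Ifi27l2a, Lgals3bp, Phf11d, Rtp4 and Lgals9.

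**Figure D2:**
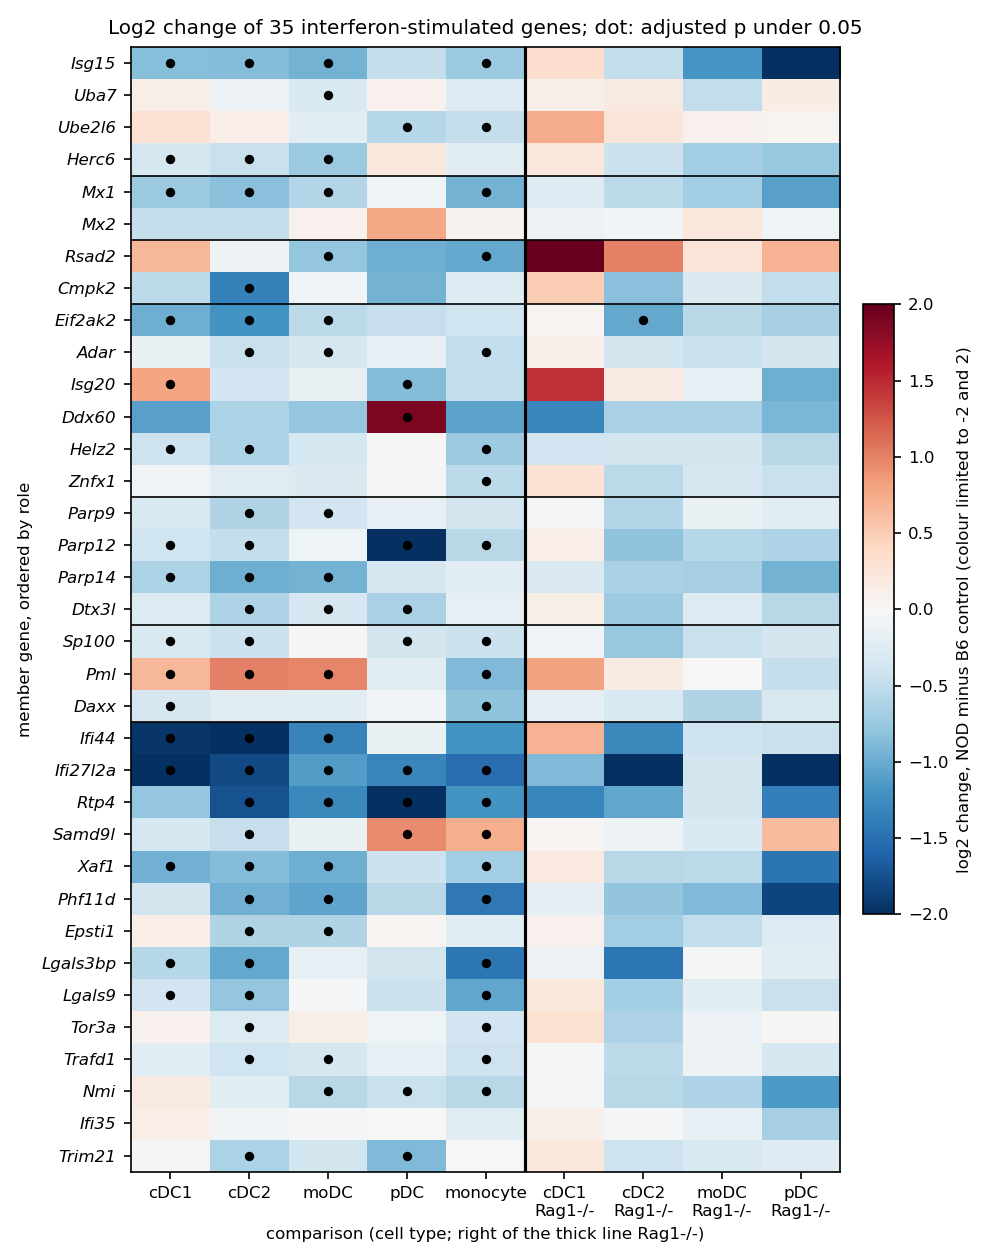
Log2 change of each of the 35 members (rows, ordered by role) in each comparison of NOD with its control (columns); colour runs from blue, lower in NOD, to red, higher in NOD, and a dot marks an adjusted p under 0.05. Ifi27l2a carries a dot in all 5 Rag-sufficient columns, Pml is red in cDC1, cDC2 and moDC and blue in monocytes, and the Rag1-/- columns right of the thick line hold a single dot, Eif2ak2 in cDC2.

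How many calls a single library carried differed between cell types. With each library left out in turn, 23 of the 24 falls in cDC2, 10 of 14 in cDC1 and 12 of 18 in moDC passed in every fit, but 9 of 20 in monocytes and 2 of 9 in pDC. The 9 in monocytes were Adar, Daxx, Ifi27l2a, Lgals3bp, Lgals9, Nmi, Phf11d, Pml and Sp100, and the pair in pDC was Parp12 and Rtp4. The count of members lower in monocytes was 10 without B6g7 replicate 3 and 11 without NOD replicate 3, against 20 with all 6 libraries; without NOD replicate 1 the count higher was 0 in place of 1. In pDC the count lower ranged from 6 to 12, and the count higher was 1 in place of 2 without any one library but NOD replicate 3. In cDC1 the count higher was 4 in place of 2 without NOD replicate 4.

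The cDC1, cDC2 and moDC libraries came from 2 sort dates, replicates 1 to 3 of each group from the earlier date and the others from the later one, except that the earlier date held 2 NOD moDC libraries, so that moDC group means weigh the dates unequally. The strain effect was therefore fitted within dates. In a contrast added after the data had been seen, many members differed between the later and the earlier date, as did a large share of all genes. Of the members, 11 were lower and 16 higher in cDC1 (28.7% and 36.5% of all genes). In cDC2 the counts were 12 and 14 (29.3% and 33.7%), and in moDC 13 and 14 (28.6% and 33.4%). Isg15 differed between the dates by a log2 change of -1.98 in cDC1, -1.91 in cDC2 and -2.21 in moDC, and Ifi27l2a by -2.12, -1.91 and -2.63. Znfx1, an RNA helicase-like gene, went the other way, with 1.78, 1.68 and 1.69. Within the earlier date alone 7 members were lower in NOD in cDC1, 13 in cDC2 and 12 in moDC, and within the later date alone 13, 23 and 14. The share of all genes called was not counted in these smaller fits, so the counts of the dates cannot be set against it. The pDC and the monocytes each came from 1 date.

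Markers of other cell types moved with strain. B cell markers were higher in NOD for 5 of 6 genes in cDC1, 4 of 6 in cDC2 and 6 of 6 in moDC, with summed levels of 66.1 to 96.1 CPM in B6g7 and 36.5 to 542 CPM in NOD cDC1, 62.8 to 160 and 76.1 to 726 CPM in cDC2, and 68.2 to 313 and 352 to 2592 CPM in moDC. T cell markers were higher in 6 of 6 genes and erythroid markers in 5 of 5 in each of these cell types, and neutrophil markers in 2 of 6, 6 of 6 and 6 of 6. Summed neutrophil markers ran from 1155 to 7050 CPM in B6g7 monocytes and from 21.3 to 27.2 CPM in NOD monocytes, with 5 of 6 lower. In moDC, 4 of 7 monocyte and moDC, 4 of 4 red pulp macrophage, 3 of 4 plasma cell, 4 of 6 pDC and 4 of 6 cDC1 markers were higher in NOD as well and 1 cDC1 marker lower, in cDC2 4 of 6 pDC and 3 of 6 cDC1 markers were higher, and in cDC1 2 of 4 red pulp macrophage and 2 of 4 plasma cell markers. In pDC 2 of 5 erythroid markers were higher (23 to 416 CPM against 1163 to 2087 CPM in NOD), 4 of 7 monocyte markers were lower in NOD and 1 was higher, with sums of 8471 to 8652 CPM in B6g7 and 1945 to 2085 CPM in NOD, and 4 of 4 red pulp macrophage markers were lower (181 to 274 CPM against 46.4 to 78.6 CPM). Without the NOD libraries whose B cell marker sum exceeded 2 times the highest B6g7 library, an alternative added after the data had been seen, 10 members were lower in cDC1, 19 in cDC2 and 7 in moDC. This left out every NOD library of the earlier date and 1 of the later date in cDC2 and in moDC, so 3, 2 and 2 NOD libraries remained, all of the later date, and B cell content, date and the smaller number cannot be told apart in these counts. The part of the other cell types in the member results was otherwise not tested.

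The ISG15 conjugation system was lower in part. Isg15 encodes the modifier, Uba7 its activating enzyme, Ube2l6 its conjugating enzyme and Herc6 its main ligase in mice. In cDC1, Isg15 stood at 56.9, 47.8 and 59.5 CPM in the earlier B6g7 libraries and 12.3, 11.7 and 10.6 CPM in the later ones, and at 25.9, 27.7 and 22.9 CPM and 7.24, 6.75 and 9.59 CPM in NOD. Within each date all NOD libraries were the lower ones, while the later B6g7 libraries lay below the earlier NOD libraries. Isg15 fell by 0.85 on the log2 scale in cDC1 (SE 0.19, adjusted p = 9.7e-04), by 0.86 in cDC2 (SE 0.18, adjusted p = 3.4e-04) and by 0.94 in moDC (SE 0.20, adjusted p = 2.5e-04). In monocytes it stood at 36.5, 37.2 and 50.8 CPM in B6g7 and 29.6, 24.4 and 20.5 CPM in NOD, without overlap, a fall by 0.74 (SE 0.26, adjusted p = 0.0447). That call was lost without B6g7 replicate 2 or 3 or NOD replicate 2 or 3, with log2 changes of -0.88 to -0.57 over the 6 fits. In pDC the groups overlapped, at 34.8, 34.5 and 30.4 CPM against 40, 16.7 and 14.5 CPM, and the change of -0.48 did not pass (adjusted p = 0.267). The enzymes followed in fewer cell types: Herc6 fell in cDC1 (-0.35), cDC2 (-0.45) and moDC (-0.74), Uba7 in moDC (-0.30), and Ube2l6 in pDC (-0.57) and monocytes (-0.47).

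Of the dynamin-like GTPases, Mx1 fell in 4 cell types and Mx2 did not pass in any. C57BL/6 mice are known to carry a defective Mx1 allele, and the allele of NOD was not examined here. The RefSeq transcripts of both genes include non-coding ones, which held 31.3% of the expected counts of Mx1 and 99% of those of Mx2. In cDC1, Mx1 ranged from 67.6 to 92.7 CPM in B6g7 (median 72.7) and from 34.8 to 62.4 CPM in NOD (median 45.9), and in cDC2 from 25.6 to 41.1 CPM (median 33.9) and from 14.7 to 23.8 CPM (median 19.2). In neither cell type did a NOD library reach a B6g7 library. Mx1 fell by 0.74 in cDC1 (SE 0.18, adjusted p = 0.00195), by 0.84 in cDC2 (SE 0.18, adjusted p = 5.9e-04) and by 0.59 in moDC (SE 0.19, adjusted p = 0.0174). Monocytes held 70.4, 72.2 and 103 CPM in B6g7 and 43.8, 41.1 and 42.4 CPM in NOD, a fall by 0.95 (SE 0.25, adjusted p = 0.00691). The call in moDC was lost without NOD replicate 1 and that in monocytes without B6g7 replicate 3, with log2 changes of -0.71 to -0.41 and -1.04 to -0.75 over the fits without 1 library. In pDC the groups overlapped, at 17.8, 27.4 and 21.5 CPM in B6g7 and 28.6, 24.2 and 10.1 CPM in NOD (log2 -0.08, adjusted p = 0.925). Mx2 had log2 changes between -0.48 in cDC1 and cDC2 and 0.77 in pDC.

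Rsad2 encodes viperin, a radical-SAM enzyme that makes an antiviral nucleotide from CTP, and its neighbor Cmpk2 a mitochondrial nucleotide kinase. Rsad2 stood at 40.5, 46.6, 49, 39.7, 43.5 and 40.2 CPM in B6g7 moDC and at 16, 22.3, 29.6, 31.1 and 31.6 CPM in NOD moDC. In monocytes it stood at 70.4, 51.4 and 110 CPM and at 40.8, 40.3 and 33.4 CPM. The strains did not overlap in either cell type, and Rsad2 fell by 0.77 in moDC (SE 0.27, adjusted p = 0.029) and by 1.02 in monocytes (SE 0.35, adjusted p = 0.0436). The moDC call was lost without B6g7 replicate 3 or NOD replicate 1 or 2, and the monocyte call without any one library but B6g7 replicate 2, with log2 changes of -0.83 to -0.61 and -1.24 to -0.68. In cDC1 the value was positive, 0.67, with B6g7 libraries from 3.52 to 11.8 CPM and NOD libraries from 3.37 to 22.4 CPM (adjusted p = 0.0787). Cmpk2 fell in cDC2, from 11.7 ± 4.37 CPM (SD, n = 6) to 4.44 ± 1.38 CPM (n = 6), by 1.35 (SE 0.22, adjusted p = 6.9e-06) and without overlap. Its change was -0.06 in moDC and -0.26 in monocytes.

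Among 6 genes whose products act on RNA, Eif2ak2, which encodes PKR, the kinase that halts translation on sensing double-stranded RNA, fell in cDC1, cDC2 and moDC. In cDC1 it ranged from 25.9 to 40.9 CPM in B6g7 (median 32.3) and from 13.4 to 19.1 CPM in NOD (median 17.1), and in cDC2 from 18.4 to 25.4 CPM (median 21.8) and from 7.37 to 16.3 CPM (median 8.22). No NOD library reached a B6g7 library of the same cell type, and the sort dates did not differ by the test in either. Eif2ak2 fell by 0.98 in cDC1 (SE 0.15, adjusted p = 1.9e-06), by 1.20 in cDC2 (SE 0.15, adjusted p = 4.2e-08) and by 0.52 in moDC (SE 0.16, adjusted p = 0.00997), each in every fit without 1 library. Monocytes held 43.6, 32 and 33.3 CPM against 26.8, 26.5 and 29.4 CPM, again without overlap, but the change of -0.40 did not pass (adjusted p = 0.211), and in pDC the value was -0.46 (adjusted p = 0.174). Adar, the deaminase that edits adenosine in double-stranded RNA, fell in cDC2 (-0.44), moDC (-0.33) and monocytes (-0.49). Helz2, a helicase and transcriptional coactivator, fell in cDC1 (-0.42), cDC2 (-0.63) and monocytes (-0.72), and Znfx1 in monocytes (-0.53). Ddx60, a helicase tied to cytosolic RNA sensing in human cells, rose in pDC from 0.866 ± 0.162 to 3.19 ± 1.94 CPM (SD, n = 3 each; log2 1.88, SE 0.59, adjusted p = 0.0263), with overlapping groups. Leaving out any one of the 6 pDC libraries but NOD replicate 3 removed that call, with log2 changes of 1.58 to 2.31.

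Isg20, a 3′ to 5′ exonuclease for RNA, was one of the 3 members with opposite directions. In cDC1 it stood at 30.4, 27.1 and 26.6 CPM in the earlier B6g7 libraries and 7.32, 7.54 and 9.63 CPM in the later ones, and at 38.2, 29.5 and 55 CPM and 11.3, 21.1 and 18.9 CPM in NOD. Within each date the NOD libraries were higher with 1 exception in the earlier date, where 29.5 CPM lay under the 30.4 CPM of B6g7. Isg20 rose by a log2 change of 0.79 in cDC1 (SE 0.17, adjusted p = 4.7e-04). In pDC it stood at 26.9, 32.2 and 20.7 CPM in B6g7 and 20.1, 10.1 and 13.5 CPM in NOD, just without overlap, and fell by 0.87 (SE 0.24, adjusted p = 0.0104). The pDC call was lost without B6g7 replicate 2 or NOD replicate 2 (-1.18 to -0.66 over the 6 fits). The changes were -0.38 in cDC2, -0.15 in moDC and -0.48 in monocytes, none of which passed.

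The ADP-ribosylation group holds the ADP-ribosyltransferases Parp9, Parp12 and Parp14 and Dtx3l, the ubiquitin ligase that partners Parp9. All 4 fell in cDC2, by 0.60, 0.48, 0.98 and 0.62 in that order. Parp14 fell without overlap in cDC2, from 66.8 ± 17.6 to 33.2 ± 4.56 CPM (SD, n = 6 each, adjusted p = 1.2e-08), and in moDC, from 86.3 ± 10.7 (n = 6) to 44.8 ± 8.43 CPM (n = 5, adjusted p = 9.6e-08). Parp12 was at the low end of the scale in pDC, at 2.25 ± 1.64 CPM in B6g7 and 0.473 ± 0.246 CPM in NOD (SD, n = 3 each), a fall by 2.22 (SE 0.41, adjusted p = 9.8e-05) with overlapping groups. It stood at 138 ± 8.98 CPM in B6g7 monocytes, whose markers were also higher in the B6g7 pDC libraries, and their part in that fall was not tested. In monocytes 1 of the 4 genes fell, Parp12 (-0.55, adjusted p = 0.0492), a call lost in each of the 6 fits without 1 library (-0.63 to -0.46).

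The nuclear body genes split. PML builds nuclear bodies in which SP100 and the histone chaperone DAXX gather. Pml was higher in NOD in cDC2, where the earlier B6g7 libraries held 8.37, 10.5 and 7.62 CPM and the later ones 25.5, 26.2 and 21.2 CPM, and the NOD libraries 18.9, 22.2 and 26.6 CPM and 33.6, 48.3 and 37.8 CPM. Within each date the strains did not overlap. Pml rose by a log2 change of 1.00 in cDC2 (SE 0.16, adjusted p = 6.3e-06), 0.66 in cDC1 (SE 0.16, adjusted p = 0.00156) and 0.97 in moDC (SE 0.17, adjusted p = 1.7e-05). In monocytes the order turned, with 53.4, 39.6 and 51.6 CPM in B6g7 and 20.6, 32.8 and 24.6 CPM in NOD, a fall by 0.89 (SE 0.22, adjusted p = 0.00357) without overlap. In pDC all NOD libraries lay below all B6g7 libraries, at 95.9, 93.0 and 91.7 CPM against 111, 103 and 111 CPM, but the value of -0.21 did not pass (adjusted p = 0.623). Each of the 4 Pml calls held in every fit without 1 library. Without the NOD libraries of high B cell markers the change of Pml was 0.80 in cDC1, 0.99 in moDC and 0.55 in cDC2, where it no longer passed with 2 NOD libraries left, both of the later date; within the whole of that date it was 0.75 and passed. Sp100 fell in cDC1 (-0.31), cDC2 (-0.43), pDC (-0.36) and monocytes (-0.43), and Daxx in cDC1 (-0.34) and monocytes (-0.81). All 3 genes thus fell in monocytes.

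**Figure D3:**
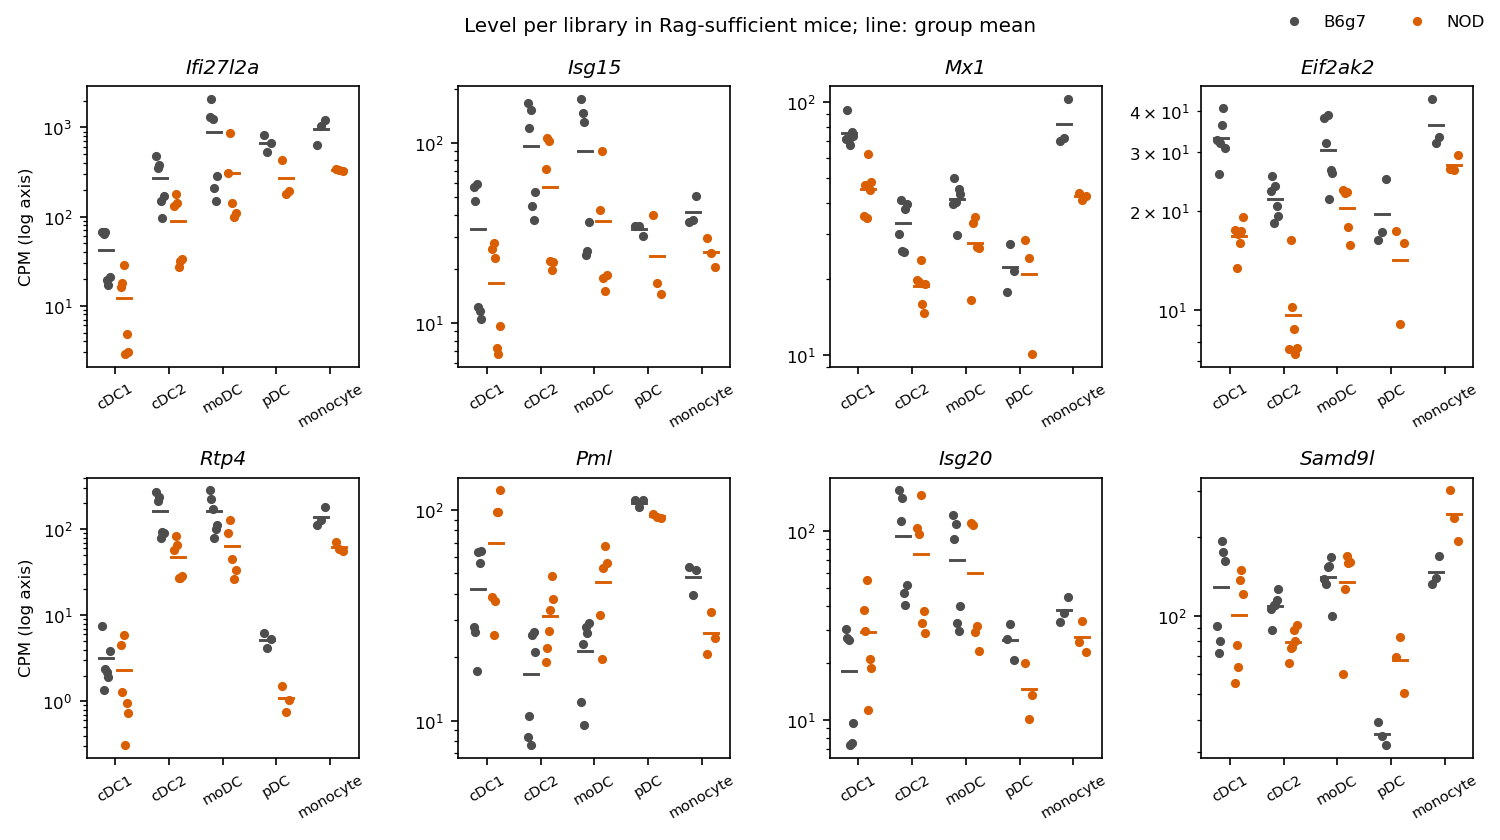
Level of 8 members in each Rag-sufficient library (CPM after TMM scaling, log axis) by cell type, B6g7 in grey and NOD in orange, with a line at each group mean. The dots of Ifi27l2a and Isg15 form an upper and a lower cluster in cDC1, cDC2 and moDC, which are the earlier and the later sort date, and Pml and Samd9l change the order of the strains between cell types.

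Ifi27l2a, a small hydrophobic protein of the ISG12 family, had the most general fall. In the earlier libraries of moDC it stood at 1304, 2097 and 1250 CPM in B6g7 and 310 and 864 CPM in NOD, and in the later ones at 208, 148 and 286 CPM and at 141, 98.4 and 110 CPM. In monocytes it stood at 627, 1039 and 1208 CPM against 341, 329 and 324 CPM, and in pDC at 824, 534 and 664 CPM against 433, 180 and 196 CPM. Within each of these cell types and dates all NOD libraries were lower. Ifi27l2a fell by 2.00 in cDC1 (SE 0.27, adjusted p = 4.2e-07), by 1.80 in cDC2 (SE 0.25, adjusted p = 6.6e-07), by 1.11 in moDC (SE 0.26, adjusted p = 0.00118), by 1.32 in pDC (SE 0.34, adjusted p = 0.00679) and by 1.53 in monocytes (SE 0.34, adjusted p = 0.00145). The pDC call was lost without NOD replicate 2 or 3 (-1.85 to -1.09 over the 6 fits). In moDC the change was -0.76 without the NOD libraries of high B cell markers and no longer passed, with 2 NOD libraries left, both of the later date; within the whole of that date it was -0.88 and passed.

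Ifi44 had the widest strain difference of the members in cDC2 and moDC, at low levels. In cDC1 it ranged from 6.11 to 13.5 CPM in B6g7 (median 12.1) and from 2.20 to 4.11 CPM in NOD (median 2.55), with no overlap, and it fell by 1.95 (SE 0.39, adjusted p = 2.0e-04). In cDC2 it ranged from 0.936 to 8.50 CPM and from 0.0512 to 0.983 CPM, where the highest NOD library passed the lowest of B6g7, and it fell by 2.84 (SE 0.50, adjusted p = 2.9e-05). The fall in moDC, by 1.33 (SE 0.44, adjusted p = 0.0172), was lost without B6g7 replicate 1 or NOD replicate 1 or 2 (-1.47 to -1.0 over 11 fits). In pDC, where Ifi44 was highest, B6g7 held 62.6, 45.6 and 41.8 CPM and NOD 73.1, 34 and 29.2 CPM (log2 -0.14, adjusted p = 0.936).

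Rtp4, a chaperone for G protein-coupled receptors, fell in the cell types that held it at a high level and also in pDC. In cDC2 the earlier libraries held 273, 213 and 236 CPM in B6g7 and 58.1, 82.7 and 65.6 CPM in NOD, and the later ones 79.3, 94.4 and 91.8 CPM and 27.5, 27.4 and 28.9 CPM. Monocytes held 111, 128 and 184 CPM against 71.6, 58.7 and 55.8 CPM, and pDC 6.23, 4.19 and 5.25 CPM against 1.51, 0.756 and 1.03 CPM. The strains were apart within each of these cell types and dates. Rtp4 fell by 1.74 in cDC2 (SE 0.24, adjusted p = 9.3e-07), by 1.29 in moDC (SE 0.26, adjusted p = 1.8e-04), by 2.23 in pDC (SE 0.55, adjusted p = 0.00454) and by 1.19 in monocytes (SE 0.34, adjusted p = 0.0133). The monocyte call was lost without B6g7 replicate 3 or NOD replicate 2 or 3 (-1.33 to -0.95). Monocytes and moDC held Rtp4 at far higher levels than pDC, and monocyte markers were lower in the NOD pDC libraries; their part in the pDC fall was not tested. In cDC1, at 1.35 to 7.59 CPM in B6g7 and 0.308 to 5.98 CPM in NOD, the change of -0.77 did not pass (adjusted p = 0.141).

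Samd9l, a sterile alpha motif protein with antiviral and growth-restraining roles, was higher in NOD in pDC and monocytes and lower in cDC2. It stood at 39.2, 34.7 and 31.9 CPM in B6g7 pDC and 69.7, 82.8 and 50.6 CPM in NOD pDC, and at 132, 139 and 169 CPM and 302, 237 and 193 CPM in monocytes. NOD was higher without overlap in both. Samd9l rose by a log2 change of 0.94 in pDC (SE 0.21, adjusted p = 0.00107) and of 0.73 in monocytes (SE 0.20, adjusted p = 0.00841). The monocyte call was lost without NOD replicate 1 (0.55 to 0.87 over the 6 fits). In cDC2, with 88.5 to 126 CPM in B6g7 and 65.9 to 92.1 CPM in NOD, it fell by 0.46 (SE 0.14, adjusted p = 0.015).

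Of the other effectors, Lgals3bp, a secreted glycoprotein that binds galectins, fell in monocytes from 251 ± 27.7 to 92.5 ± 13.8 CPM (SD, n = 3 each), by 1.44 (SE 0.15, adjusted p = 3.1e-10), and in cDC2 from 69.1 ± 8.79 to 34.1 ± 3.46 CPM (SD, n = 6 each), by 1.02 (SE 0.11, adjusted p = 2.3e-10), both without overlap, and by 0.57 in cDC1. In moDC its change was -0.17 and did not pass. Lgals9, which encodes galectin-9, fell in the same 3 cell types, by 1.04 in monocytes (SE 0.16, adjusted p = 2.3e-06) and by 0.78 in cDC2 (SE 0.11, adjusted p = 4.5e-07), and by 0.38 in cDC1. Phf11d, a PHD finger protein, fell by 1.43 in monocytes (SE 0.20, adjusted p = 8.0e-07), by 1.05 in moDC and by 0.96 in cDC2. Xaf1, a binding partner of the apoptosis inhibitor XIAP, fell by 0.96 in cDC1 (SE 0.16, adjusted p = 7.7e-06), 0.86 in cDC2, 0.97 in moDC and 0.69 in monocytes. The remaining members of this role were Epsti1, lower in cDC2 and moDC by 0.60 each, Trafd1, an inhibitor of innate signaling, lower in cDC2, moDC and monocytes, and Nmi, lower in moDC, pDC and monocytes. The torsin ATPase Tor3a was lower in cDC2 and monocytes, and Trim21, the cytosolic antibody receptor and ubiquitin ligase, in cDC2 (-0.63) and pDC (-0.89). Ifi35, the partner of Nmi, had log2 changes between -0.25 and 0.13.

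Whether the strain difference of a gene was equal across the 5 Rag-sufficient cell types was tested directly. It was unequal for 22 of the 35 members, against 24.3% of all genes. Pml and Lgals3bp had the lowest adjusted p (1.2e-06 each), followed by Epsti1 (1e-05), Samd9l (2.4e-05) and Isg20 (8.6e-05). Among the 13 members with no detected inequality were Ifi27l2a (adjusted p = 0.275), Isg15 (0.785), Mx1 (0.276), Rtp4 (0.268) and Xaf1 (0.395), while Parp12 (0.00526) and Sp100 (0.00279), each lower in 4 cell types, were unequal. A p above the threshold does not show that the differences were equal.

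The basal level of many members in B6g7 differed between cell types, as did that of a large share of all genes. In cDC2 against cDC1, sorted on the same dates, 15 members were higher and 11 lower (25.8% and 24.7% of all genes). Rtp4 was higher in cDC2 by a log2 difference of 5.49 (SE 0.31), Ddx60 by 4.15 (SE 0.38) and Ifi27l2a by 2.74 (SE 0.26), and Ifi44 was lower by 2.06 (log2 -2.06, SE 0.39). In moDC against cDC2, 14 were higher and 6 lower (19.8% and 15.5%), with Ifi27l2a higher by 1.27 and Ube2l6 by 1.14. In monocytes against moDC of the same, later date, 18 were higher and none lower (23.6% and 21.8%), among them Cmpk2 (2.45), Lgals9 (2.04) and Ifi27l2a (2.04). In pDC against cDC1, which were sorted on other dates, 10 were higher and 15 lower (30.3% and 32.1%), with Ifi27l2a higher by 4.24 and Parp12 and Trafd1 lower (-5.11 and -3.38). Over the 10 Rag-sufficient groups, Parp12 had the widest range, from 0.473 CPM in NOD pDC to 138 CPM in B6g7 monocytes. Uba7 had the narrowest, from 58.7 CPM in B6g7 pDC to 124 CPM in B6g7 cDC2. These group means pool sort dates where a group has both.

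A list of 25 further genes of the interferon pathway, among them the transcription factors Irf7 and Irf9 and the Oas, Ifit and Usp18 genes, held 20 that could be tested. Of these, 15 fell in cDC2, 14 in moDC, 13 in monocytes, 11 in cDC1 and 6 in pDC. Of all genes, 10.2%, 14.3%, 7.52%, 8.94% and 7.40% fell, in that order. The receptor gene Ifnar1 alone rose, in monocytes (log2 0.58, SE 0.12, adjusted p = 4.0e-04), where 7.81% of all genes rose. In the Rag1-/- comparisons none of the 20 passed. Few of all genes did, from 0.571% (higher, moDC) to 2.71% (lower, pDC) per direction. The median log2 change of the 20 there was -0.93 for pDC, -0.68 for moDC, -0.67 for cDC2 and -0.07 for cDC1. For the same Rag-sufficient cell types it was -0.32, -0.64, -0.91 and -0.53, in that order. The lack of calls in Rag1-/- cells thus does not show that the difference was absent. Irf7, which drives interferon production and is itself an interferon target, fell by 1.35 in cDC2 (SE 0.13), by 0.84 in cDC1 and by 1.03 in monocytes. Irf7 also fell in moDC (-0.52), and in pDC its change of -0.45 did not pass. Usp18, the protease that removes ISG15 and dampens the receptor, fell by 1.21 in moDC (SE 0.14) and by 1.45 in monocytes (SE 0.19). It also fell in cDC1 (-0.52), cDC2 (-0.49) and pDC (-0.57). Oas1a, a sensor of double-stranded RNA, fell by 2.32 in cDC1 (SE 0.23) and by 2.57 in pDC (SE 0.32), and also in cDC2 (-1.45), moDC (-1.38) and monocytes (-1.32).

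In the Rag1-/- set a single member passed. Eif2ak2 stood at 32.9, 40.2 and 40.1 CPM in B6 Rag1-/- cDC2 and at 15.9, 20.5 and 19.4 CPM in NOD Rag1-/- cDC2, without overlap, and fell by 1.02 (SE 0.26, adjusted p = 0.0431). That call was lost in each of the 6 fits without 1 library (-1.11 to -0.92), and without B6 Rag1-/- replicate 1 a different member passed as lower. In cDC2, 30 of the 35 members had a negative change, with a median of -0.55 beside 0.00 for all genes, and for 16 of them every NOD Rag1-/- library lay below every B6 Rag1-/- library (12.9% of all genes), and for none above (12.8%). At the threshold 1.26% of the 13137 genes tested were lower in that comparison and 1.07% higher. In Rag1-/- cDC2, moDC and pDC the strains shared only some of their sort dates. In Rag1-/- cDC1 each date held 1 library of each strain, a pairing that the fit, with a term per group, did not use. With the date as an additive term no member passed in cDC2. Summed erythroid markers in these cDC2 libraries ran from 513 to 5656 CPM in B6 Rag1-/- and from 6964 to 14345 CPM in NOD Rag1-/- (0 of 5 passed), NK cell markers from 19.1 to 112 and from 5.61 to 10.8 CPM (1 of 4 lower) and monocyte markers from 678 to 4094 and from 416 to 966 CPM, and their part in the member values was not tested.

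In the other Rag1-/- cell types no member passed edgeR's test. Every NOD Rag1-/- library lay below every B6 Rag1-/- library for 1 member in cDC1 (10.1% of all genes), 3 in moDC (15.1%) and 3 in pDC (5.67%), and above for 5 in cDC1 (11.1%) and none in moDC (14.6%) or pDC (6.42%). In cDC1 (0.898% of all genes lower, 0.769% higher) the members' median was 0.10, and at an unadjusted p under 0.05 none was lower and 1 higher, Rsad2. Without B6 Rag1-/- replicate 1, 1 member passed as lower in cDC1. In moDC (0.921% and 0.571%) the median was -0.37 with 1 lower and none higher at that unadjusted level. In pDC (2.71% and 1.87%) it was -0.47 with 9 lower and none higher at the same level. The percentages given with these medians are shares of all genes at the adjusted threshold. The share of all genes at an unadjusted p under 0.05 was not counted, so the counts at that level cannot be set against it. With DESeq2, 5 members were lower in pDC, and with limma none. The spread was wide: Ifi27l2a stood at 2226, 4294 and 407 CPM in B6 Rag1-/- pDC and at 139, 245 and 1073 CPM in NOD Rag1-/- pDC, and Isg15 at 146, 615 and 36.7 CPM and at 18.1, 48.8 and 84.5 CPM. In each strain 1 library, replicate 3, stood on the other side of the rest. The log2 changes were -2.25 (SE 0.92, adjusted p = 0.149) and -2.40 (SE 0.72, adjusted p = 0.0614). Without B6 Rag1-/- replicate 3, 6 members were lower in pDC and 1 higher. The count lower was also 6 without NOD Rag1-/- replicate 3, and it was 5 without NOD Rag1-/- replicate 1 and 1 without B6 Rag1-/- replicate 1. Summed erythroid markers in these pDC libraries ran from 1510 to 6453 CPM in B6 Rag1-/- and from 3308 to 20192 CPM in NOD Rag1-/-, with 3 of 5 markers higher. Monocyte markers ran from 3525 to 24609 CPM and from 1700 to 2542 CPM without overlap (1 of 7 lower, 1 higher) and NK cell markers from 66.3 to 170 and from 2.42 to 63.1 CPM. The part of these cells was not tested.

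The direction of Rsad2 in Rag1-/- cDC1 was that of higher values in NOD. It stood at 25.1, 6.82 and 36 CPM in B6 and at 49.5, 130 and 92.1 CPM in NOD, all NOD libraries being higher (log2 2.00, SE 0.83, adjusted p = 0.381). For Pml the Rag1-/- cDC1 libraries stood at 65.3, 78.3 and 98.4 CPM in B6 and 146, 127 and 152 CPM in NOD, again without overlap (log2 0.81, adjusted p = 0.774). The strain effect of the Rag-sufficient set minus that of the Rag1-/- set passed for none of the 35 members, beside 0.210% of all genes in cDC1, 1.11% for cDC2, 0.585% for moDC and 1.35% for pDC. The lowest adjusted p were those of Herc6 (0.071) and Ddx60 (0.0779) in pDC and of Eif2ak2 in cDC1 (0.0974). At an unadjusted p under 0.05, 7 members passed in pDC, 5 in cDC1, 2 in moDC and 0 in cDC2. How many of all genes passed at that level was not counted, so these counts have no background beside them.

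Isg20 was also resolved by transcript, a choice made after its values had been seen. Its counts were divided over 4 RefSeq transcripts, whose positions were read from the GENCODE annotation by RefSeq identifier. These transcripts lie on the plus strand of chromosome 7 (GRCm38), start at 78913424, 78913458, 78913765 and 78914235 and share the coding start at 78914347. Those from 78913424, 78913765 and 78914235 have the same coding length of 543 bases, so they differ in their first exon, which ends at 78913494, 78914042 and 78914574. The 150 bases before each of these 3 starts are shown because the counts assigned to these transcripts differed between the strains in several cell types; they lie at chr7:78913274-78913423, chr7:78913615-78913764 and chr7:78914085-78914234, and the capitals mark a gamma-activated site that begins 73 bases before the most upstream start.
Isg20 before 78913424: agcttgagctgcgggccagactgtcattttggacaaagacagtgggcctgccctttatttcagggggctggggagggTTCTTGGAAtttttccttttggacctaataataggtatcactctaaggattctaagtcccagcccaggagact
Isg20 before 78913765: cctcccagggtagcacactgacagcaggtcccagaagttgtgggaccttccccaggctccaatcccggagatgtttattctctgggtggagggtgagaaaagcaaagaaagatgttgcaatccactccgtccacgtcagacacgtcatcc
Isg20 before 78914235: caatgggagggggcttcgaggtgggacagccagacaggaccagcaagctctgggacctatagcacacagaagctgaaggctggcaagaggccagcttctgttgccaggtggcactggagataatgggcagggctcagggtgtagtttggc
None of the 3 windows held the core of the response element.

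The most downstream start took 54.7% ± 9.74 of the expected counts of Isg20 in NOD cDC1 and 5.76% ± 10.7 in B6g7 cDC1 (SD, n = 6 each), and the most upstream start 4.02% ± 5.77 and 50.7% ± 20.9. In pDC the downstream share was 60.0% ± 8.25 against 28.4% ± 9.41 (SD, n = 3 each), and in Rag1-/- pDC 61.6% ± 0.792 against 18.9% ± 4.91 (SD, n = 3 each). In both the groups did not overlap, nor did they in cDC1, cDC2, or Rag1-/- cDC1 and moDC, while they did in Rag-sufficient moDC, monocytes and Rag1-/- cDC2. In an edgeR quasi-likelihood fit over single transcripts, added after the data had been seen, the downstream transcript rose by a log2 change of 4.29 in cDC1 (SE 0.79, adjusted p = 1.3e-04), 2.99 in cDC2 (SE 0.71, adjusted p = 0.00265) and 2.45 in moDC (SE 0.81, adjusted p = 0.0305). The upstream transcript fell in cDC1 (-2.98, adjusted p = 0.0241), cDC2 (-3.21, adjusted p = 0.00926) and pDC (-6.16, adjusted p = 0.0193), and in Rag1-/- pDC (-9.04, SE 1.72, adjusted p = 0.00691), where it stood at 58.1 ± 71.4 CPM in B6 and 0.0922 ± 0.117 CPM in NOD. In monocytes neither passed (-0.63 and -2.96). In the authors' deposited table, which tests single transcripts too, the downstream one had log2 changes of 4.93 in cDC1 (adjusted p = 0.00109), 3.15 in cDC2 (adjusted p = 0.00312) and 2.33 in moDC (adjusted p = 0.00383). How reads were divided between transcripts, and whether reads of NOD align to the reference as well as those of C57BL/6, was not tested.

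**Figure D4:**
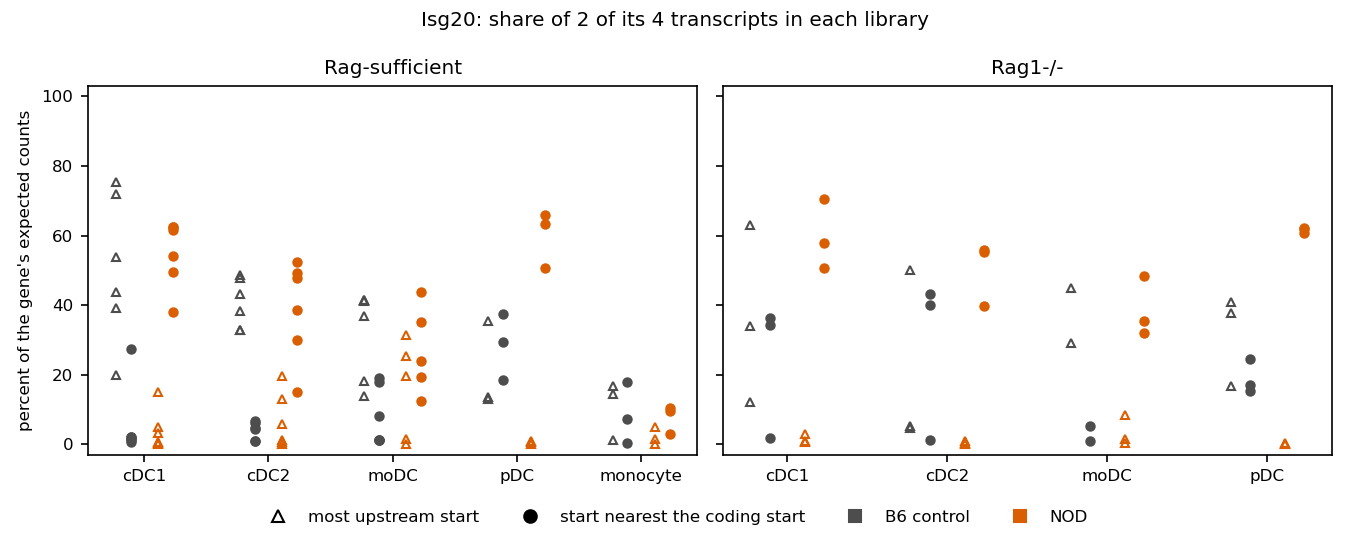
Percentage of the expected counts of Isg20 assigned to its most upstream start (open triangles) and to the start nearest the coding start (filled circles) in each library, B6 controls in grey and NOD in orange, for Rag-sufficient (left) and Rag1-/- (right) cells. In cDC1 and in pDC the NOD circles lie above the B6 circles and the NOD triangles below the B6 triangles, in both sets.

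Over single transcripts, 25 of 53 tested transcripts of the members fell in cDC2 and 3 rose (6.20% and 6.79% of all transcripts). In cDC1 13 fell and 3 rose (5.32% and 7.17%), in moDC 15 and 1 (8.28% and 9.64%), in monocytes 13 and 1 (4.44% and 4.43%) and in pDC 9 and 2 (4.99% and 3.36%). Isg20 and Nmi were the members with transcripts that passed in opposite directions in the same cell type. For Nmi, on the minus strand of chromosome 2, the transcript starting at 51973004 rose in cDC1 (0.67, adjusted p = 6.6e-05) and cDC2 (0.62, adjusted p = 2.2e-04), while one from 51973224 fell in cDC2 (-1.21, adjusted p = 7.4e-04), moDC (-1.08, adjusted p = 0.00381), pDC (-1.26, adjusted p = 0.0232) and monocytes (-1.12, adjusted p = 0.0441). The summed gene had shown changes of 0.18 in cDC1 and -0.21 in cDC2, neither of which passed.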

How the data were processed

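The deposited table held expected counts per transcript; RSEM and limma are named in the submitters' processing notes, and no source used here gives the aligner or genome build. Log2 changes and adjusted p-values of the authors' deposited comparison tables are quoted for Isg20 alone; their gene names, beside RefSeq identifiers, assigned transcripts to genes. The members and gene lists were chosen with earlier results of these data known. Transcripts were summed per gene, rounded and tested with edgeR 4.0.16 (R 4.3.3): TMM scaling, robust quasi-likelihood fit, at least 1 CPM in at least 3 libraries, Benjamini-Hochberg adjustment over all genes. Rag-sufficient libraries (47) were fitted with a stratum for each sort date of a cell type and a strain effect per cell type, Rag1-/- libraries (23) with a term per group, and all 70 for differences between sets. The steps were tested on simulated counts. SE is the absolute log2 change over the square root of F. Per-library values are given for the largest fall of each comparison above 10 CPM, for members with opposite calls and for Mx1, Isg15, Rsad2, Ifi44, Ifi27l2a and Eif2ak2; the 5 largest falls and rises of each comparison are named. Alternatives were DESeq2 1.42.0, limma 3.58.1, other scaling, filter, date and block terms, and leaving out each library or the cDC2 libraries of low RNA integrity. Replicate numbers carry no stated pairing. Same-numbered libraries correlated above 0.1 in all pairs of cDC1 (0.55 to 0.67), cDC2 (0.45 to 0.67) and Rag1-/- cDC1 (0.17 to 0.39). In moDC 4 of 5 pairs did (-0.42 to 0.61), and in the other comparisons none. The same-numbered libraries of cDC1, cDC2 and Rag1-/- cDC1 also shared a sort date, which was not removed, so number and date cannot be told apart. Total counts per library limit the precision of low genes, and no pair of libraries was identical.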

Additional observations from a re-analysis of the deposited data

Results flagged for a closer look

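The strain difference was unequal across the 5 Rag-sufficient cell types, by edgeR's quasi-likelihood test of the difference itself, for 22 of the 35 members, a share to be read beside 24.3% of all genes. The adjusted p was 1.2e-06 for Pml and for Lgals3bp, 1e-05 for Epsti1, 2.4e-05 for Samd9l, 8.6e-05 for Isg20, 0.00038 for Lgals9 and 0.00046 for Nmi. It was 0.00127 for Ube2l6, 0.00279 for Sp100, 0.00526 for Parp12, 0.00598 for Herc6, 0.0065 for Phf11d, 0.00666 for Parp14 and 0.00791 for Rsad2. It was 0.0118 for Cmpk2, 0.0134 for Ddx60, 0.0159 for Tor3a, 0.0221 for Eif2ak2, 0.0232 for Uba7, 0.0268 for Trim21, 0.0297 for Mx2 and 0.0363 for Ifi44.

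In 5 of 60 groups of 4 to 10 libraries examined, 1 library stood apart from the rest by Dixon's criterion. Values of a single normal distribution meet it in about 1 in 20 groups. The groups examined were those of Rag-sufficient cDC1, cDC2 and moDC, which pool 2 sort dates, so that rate need not hold for them. Mx1 stood at 92.7 CPM in B6g7 cDC1 replicate 2, Ifi44 at 4.11 CPM in NOD cDC1 replicate 4 and at 8.50 CPM in B6g7 cDC2 replicate 1. Ifi27l2a stood at 864 CPM in NOD moDC replicate 2, a library of the earlier sort date, and Eif2ak2 at 16.3 CPM in NOD cDC2 replicate 2. Each was the highest of its group.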

How the results depend on the processing

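No member's call changed sign in any alternative. Of 178 counts under alternatives other than leaving out 1 library, 147 stayed within 1.5 times the count reported, and of 140 counts with 1 library left out, 120. The share of all genes called was not counted under the alternatives. DESeq2's test and size factors kept all 93 calls and limma 87. With no scaling, where the all-gene median stood at 0.14 in moDC, 0.11 in Rag1-/- cDC2 and 0.40 in Rag1-/- pDC, 75 calls held and 11 members were lower in moDC. Without the sort date term, the members lower were 11 in cDC2, 6 in cDC1 and in moDC, 2 in monocytes and 1 in pDC, and those higher 0 in each. The earlier sort date alone gave 7 lower in cDC1 and 13 in cDC2, and 0 higher in cDC1 and moDC. Under the replicate block, 62 of 93 calls held: 20 members were lower in cDC2, 11 in cDC1 and in moDC, 9 in monocytes and 5 in pDC, 1 was higher in pDC, and 0 were lower in Rag1-/- cDC2. With limma 1 was higher in pDC. Without the NOD libraries of high B cell markers, which left later-date NOD libraries alone, 7 were lower in moDC and 0 higher in cDC2. In Rag1-/- cDC2 no scaling, no filter and an additive date term gave 0 lower and a fit of that cell type alone 3. The latter gave 2 higher in Rag1-/- cDC1. In Rag1-/- pDC DESeq2 gave 5 lower and an additive date term 3. The cause of these shifts was not tested.

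With 1 library left out, the members lower ranged from 23 to 25 in cDC2, 10 to 15 in cDC1, 10 to 17 in monocytes, 14 to 19 in moDC and 6 to 12 in pDC. Those higher ranged from 2 to 4 in cDC1, 1 to 2 in pDC and 0 to 1 in monocytes, and stood at 1 in cDC2 and moDC. In Rag1-/- cells the members lower ranged from 0 to 1 in cDC1 and cDC2, 0 to 6 in pDC and were 0 in moDC, and those higher 0 to 1 in pDC. The members' median changed sign in Rag1-/- moDC (-0.74 to 0.15) and cDC1 (-0.01 to 0.28) alone. The gamma-activated site was present in 2 members in the 250 bases before the start alone.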
